A study of Mus musculus with 6 samples.

Results

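Bcl6, S1pr2, Mybl1, Gcsam, Mef2b, Nuggc and Basp1 are 7 genes known for their use in germinal centre B cells, and they were followed here by name in splenic B cells of p80HT transgenic and WT mice. A gene was read at the probeset that the platform annotation pairs with its symbol alone. Of the 7 genes, 6 had such a probeset, 1 each, among 19938 genes measured in the same way. The only probeset of Mef2b also carries the symbols Gm45929 and Borcs8, so Mef2b was not analysed here.

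Germinal centres are the sites within B cell follicles where activated B cells divide, mutate their immunoglobulin genes and compete for help from T cells. Bcl6 is the transcriptional repressor on which the germinal centre programme depends, and its loss lets B cells go on towards plasma cells. Mef2b acts upstream of Bcl6 as a transcriptional activator, and Mybl1 encodes A-Myb, a MYB family activator that is high in dividing germinal centre B cells. S1pr2 is a receptor for sphingosine-1-phosphate that holds B cells within the follicle centre, and Gcsam is an adaptor protein that limits the motility of germinal centre lymphocytes. Nuggc is a nuclear GTPase of germinal centre B cells, and Basp1 is a membrane-attached signal protein related to Marcks and Gap43.

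B cells were drawn from the spleens of 1-year-old mice by magnetic selection on B220. The transgene of the p80HT mice (n = 3) is a human NF-κB2 that lacks its C-terminal part, a form known from lymphoma, and its H-2Kb promoter with an immunoglobulin μ enhancer makes it active in both B and T cells. All 3 p80HT mice had monoclonal immunoglobulin (M-protein) in their serum. The 3 WT mice were their littermates, so both groups shared the C57BL/6J x SJL/J background and the age, and 1 array was run per mouse without pooling. The comparison of p80HT with WT asks how B cells of M-protein-positive mice differ from those of normal mice.

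Values are log2 signals, and a log2 fold change is the p80HT mean less the WT mean. The words rose and fell are kept for genes past the threshold of the study's methods, a 1.5-fold change and a p under 0.01 before adjustment, here from limma. A level was called near background at or under 7.42, the 95th percentile of the means of 1027 olfactory receptor genes. The smallest p that an exact permutation test can reach with 3 mice per group is 0.10.

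The array of p80HT 3 stood apart from the others. Across genes it correlated at 0.914 to 0.925 with the other 5 arrays, which correlated at 0.981 or more among themselves. All 6 measured B cell markers were at their lowest on p80HT 3, where their mean was 11.07 against 12.30 to 12.47 in WT and 12.20 to 12.29 on p80HT 1 and 2. On the same array markers of other cells were high. The mean of 6 T cell markers was 10.30 on p80HT 3, against 7.81 to 8.24 in WT and 8.62 to 8.79 on p80HT 1 and 2. For 6 macrophage markers it was 11.89, against 9.90 to 10.09 and 10.48 to 10.54 in the same order, and for 6 fibroblast markers 9.80, against 7.05 to 7.51 on the other 5 arrays, on all of which 3 of these markers were near background. For 6 salivary and lacrimal gland markers it was 12.34, against at most 6.79 in WT and 6.93 on p80HT 1 and 2, and 4 of the 6 were near background on all arrays but p80HT 3. Fold changes of the germinal centre genes are therefore given over all 6 arrays and again without p80HT 3, and the part that other cells had in it was not tested. In samples of this kind, fewer cells of a type and less RNA per cell cannot be told apart.

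**Figure D1:**
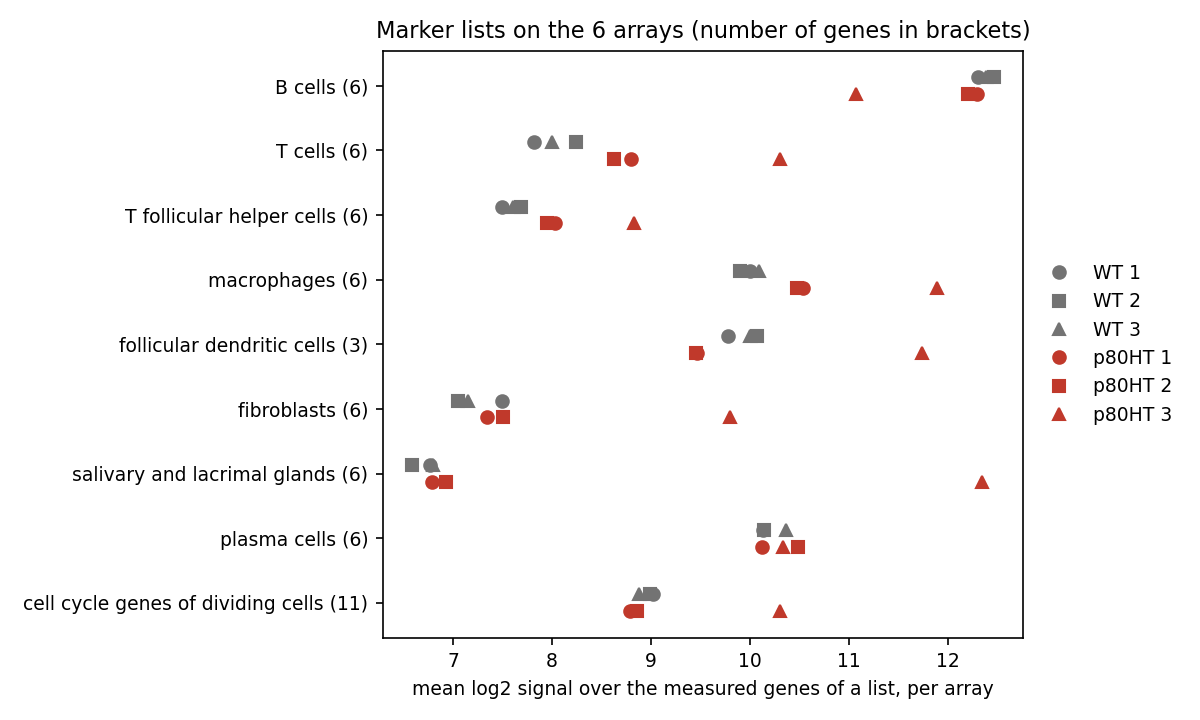
Mean log2 signal (horizontal axis) of each marker list on each array, with WT in grey and p80HT in red. The array of p80HT 3 (red triangles) has the lowest B cell mean, 11.07. Its means are the highest for T cells, T follicular helper cells, macrophages, follicular dendritic cells, fibroblasts, glands and dividing cells. The mean of the plasma cell list lies between 10.12 and 10.49 on all 6 arrays. Of its 6 markers, 3 are highest on p80HT 3 and 1 is lowest there.

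Bcl6 fell in p80HT B cells, and of the 6 measured germinal centre genes it was the only one to pass the threshold with all 6 arrays. Its log2 signal was 10.64, 10.75 and 10.80 in WT 1, 2 and 3 and 10.30, 9.90 and 10.03 in p80HT 1, 2 and 3. All 3 p80HT mice lay under all 3 WT mice, and p80HT 3 lay between the other p80HT mice. The mean was 10.08 ± 0.20 (SD, n = 3) in p80HT against 10.73 ± 0.08 in WT, a log2 fold change of -0.65 (SE 0.14, 95% interval -0.99 to -0.31) or 1.57-fold, with an unadjusted limma p of 0.00264. After Benjamini-Hochberg adjustment over all genes the limma p was 0.221. Without p80HT 3 the log2 fold change was -0.63 (SE 0.13), with an adjusted limma p of 0.0295. The fold lay close to the 1.5-fold limit, and the call was lost without WT 2 (-0.64), without WT 3 (-0.62), without p80HT 2 (-0.56) and under quantile normalization (-0.58).

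The Bcl6 gene lies at chr16:23965050-23988866 (GRCm38.p6), on the minus strand. RefSeq gave promoter windows for 5 of the 7 genes, Bcl6 with 2 starts, S1pr2, Gcsam, Basp1 and Mef2b, and the 250 bases before each start were searched on both strands for TTCNNNGAA, the spacing that STAT factors and BCL6 are known to bind. Both Bcl6 windows held it and the other 4 windows did not. The Bcl6 windows are shown because Bcl6 is the gene that fell with all 6 arrays, and the Gcsam window because it also lies on chromosome 16 and holds no match. They are chr16:23988853-23989102 and chr16:23981284-23981533 on the minus strand for Bcl6 and chr16:45610190-45610439 on the plus strand for Gcsam, printed 5′ to 3′ with matches in capitals.
Bcl6 first start: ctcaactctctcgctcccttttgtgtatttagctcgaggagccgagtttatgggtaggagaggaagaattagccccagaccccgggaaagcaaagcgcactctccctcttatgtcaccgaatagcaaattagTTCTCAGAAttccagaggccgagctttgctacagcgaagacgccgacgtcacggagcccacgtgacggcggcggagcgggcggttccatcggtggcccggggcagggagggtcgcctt
Bcl6 second start: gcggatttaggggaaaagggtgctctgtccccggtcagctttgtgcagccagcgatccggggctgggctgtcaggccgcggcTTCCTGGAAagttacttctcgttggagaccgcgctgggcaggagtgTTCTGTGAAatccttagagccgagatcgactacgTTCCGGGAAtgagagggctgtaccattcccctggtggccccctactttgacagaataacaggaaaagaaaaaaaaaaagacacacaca
Gcsam: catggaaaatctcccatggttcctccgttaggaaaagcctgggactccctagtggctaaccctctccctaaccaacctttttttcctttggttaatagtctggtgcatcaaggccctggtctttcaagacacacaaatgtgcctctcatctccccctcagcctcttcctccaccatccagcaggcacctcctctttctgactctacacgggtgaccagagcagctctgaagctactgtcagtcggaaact

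The first Bcl6 window, which overlaps the 5′ end of the gene's span, held 1 match, 118 bases before its start. The second, which lies wholly within that span, held 3, at 168, 122 and 88 bases before its start. Of 32851 windows of this length in RefSeq, 7.02% held at least 1 match and 0.0274% held 3 or more. The κB consensus, which NF-κB binds, had 2 overlapping matches in the Basp1 window, 172 and 171 bases before the start, and no match in the other 5 windows, against 7.25% of all windows with at least 1. A match describes letters in the window and is not a bound site.

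Mybl1 showed the widest spread of the measured genes. Its log2 signal was 8.57, 8.86 and 8.45 in WT 1, 2 and 3 and 6.71, 6.85 and 9.68 in p80HT 1, 2 and 3. The p80HT mice 1 and 2 lay under every WT mouse and near background, while p80HT 3 lay above every WT mouse. The p80HT mean was 7.75 ± 1.68 (SD, n = 3) against 8.63 ± 0.21 in WT, a log2 fold change of -0.88 (SE 0.74, 95% interval -2.62 to 0.85) that did not pass (limma p 0.270, adjusted p 0.750). Without p80HT 3, Mybl1 fell, with a log2 fold change of -1.85 (SE 0.14) and an adjusted limma p of 0.000121. Since p80HT 1 and 2 were near background, this is a difference of at least 2.30-fold against the background mark. On p80HT 3 the signal was 2.90 above the mean of p80HT 1 and 2 and 1.05 above the WT mean (log2). Without p80HT 1 or without p80HT 2 the log2 fold change of Mybl1 was -0.36 or -0.43, and it did not pass. The MYB family members Myb and Mybl2 did not pass, with log2 fold changes of 0.11 and 0.39 over all arrays and 0.03 and 0.19 without p80HT 3.

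**Figure D2:**
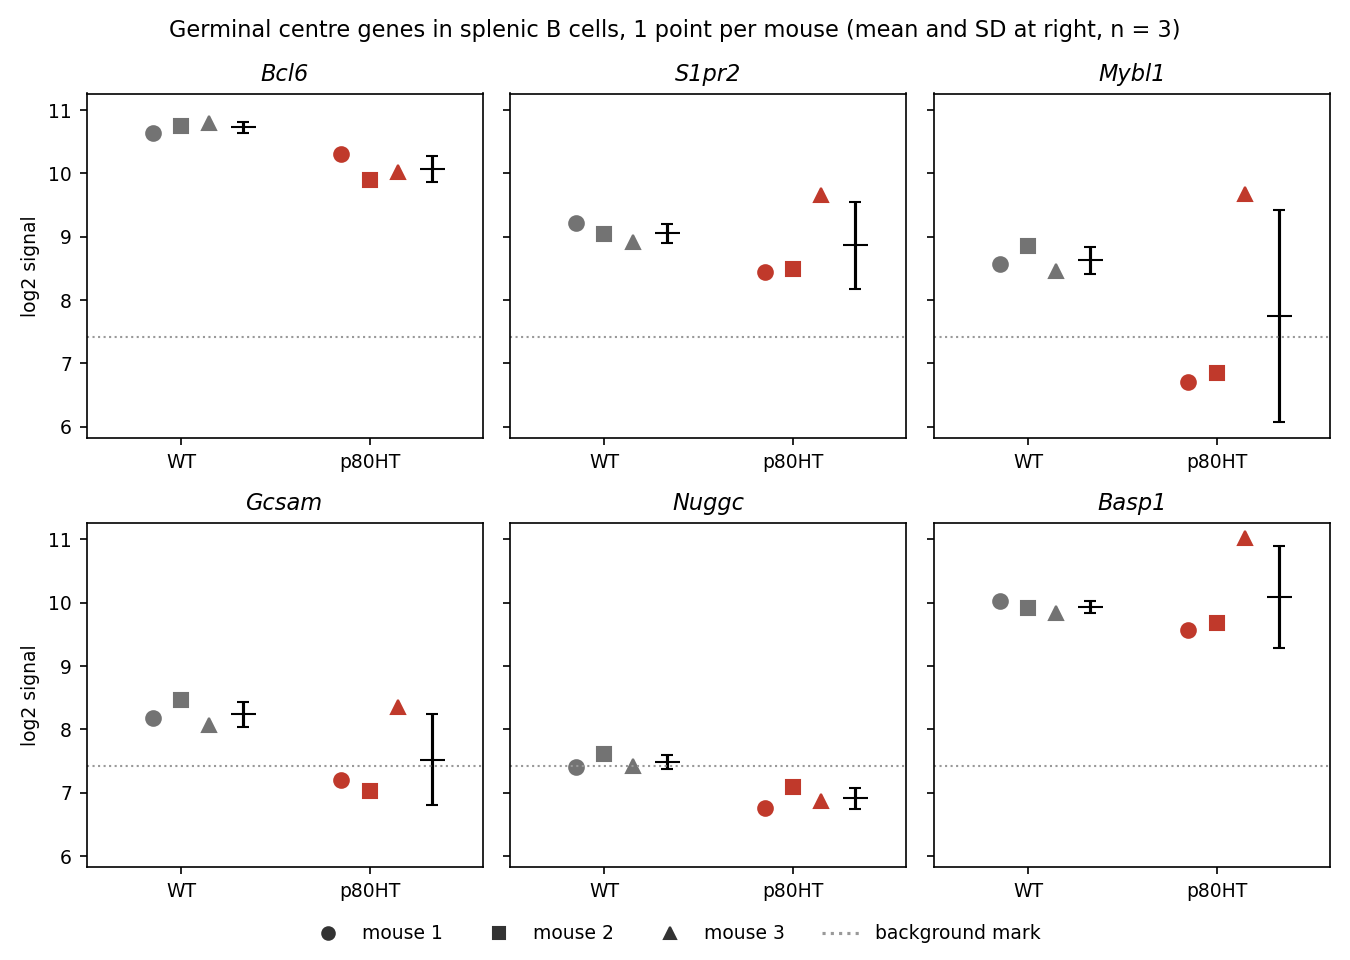
Log2 signal (vertical axis) of the 6 measured germinal centre genes, 1 point per mouse, with the group mean and SD at the right (n = 3) and the background mark as a dotted line at 7.42. For Bcl6 and Nuggc all p80HT mice lie under all WT mice, and for S1pr2, Mybl1 and Basp1 the mice p80HT 1 and 2 lie under WT and p80HT 3 (triangle) above it.

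S1pr2, the receptor that confines B cells to the germinal centre, had a log2 signal of 9.22, 9.04 and 8.92 in WT 1, 2 and 3 and of 8.45, 8.49 and 9.66 in p80HT 1, 2 and 3. As for Mybl1, p80HT 1 and 2 lay under every WT mouse and p80HT 3 above every WT mouse. With all arrays the p80HT mean of 8.87 ± 0.69 (SD, n = 3) did not differ from 9.06 ± 0.15 in WT by more than the spread (log2 fold change -0.19, 95% interval -0.95 to 0.57, limma adjusted p 0.941). Without p80HT 3, S1pr2 fell by 0.59 on the log2 scale (SE 0.12, adjusted limma p 0.0227), which is just past the fold limit. Without p80HT 1 the sign turned, to 0.02.

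Gcsam, the adaptor that restrains motility, had a log2 signal of 8.18, 8.46 and 8.07 in WT 1, 2 and 3 and of 7.20, 7.02 and 8.35 in p80HT 1, 2 and 3. The mice p80HT 1 and 2 were under every WT mouse and near background, and p80HT 3 lay within the WT range. The mean was 7.52 ± 0.72 (SD, n = 3) in p80HT and 8.24 ± 0.20 in WT, a log2 fold change of -0.71 (SE 0.34, 95% interval -1.52 to 0.09) with a limma p of 0.0740 and an adjusted p of 0.530. Without p80HT 3, Gcsam fell by 1.13 on the log2 scale (SE 0.13, adjusted limma p 0.00161), at least 1.76-fold against the background mark. Without p80HT 2 it was at -0.46, which did not pass.

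Nuggc was low in both groups. Its log2 signal was 7.41, 7.60 and 7.43 in WT 1, 2 and 3 and 6.76, 7.10 and 6.88 in p80HT 1, 2 and 3. All p80HT mice lay under all WT mice, but all 3 of them and WT 1 were near background. The log2 fold change was -0.57 (SE 0.14, 95% interval -0.90 to -0.24, limma p 0.00459, adjusted p 0.272), which at 1.48-fold missed the fold limit, and without p80HT 3 it was -0.55 (adjusted limma p 0.0426), or 1.46-fold. Against the background mark the WT mean of 7.48 was at least 1.04-fold higher. Nuggc passed without p80HT 2 (-0.66), under median centring (-0.66) and under quantile normalization (-0.62).

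Basp1 was the only 1 of the 6 with a positive fold change over all arrays. Its log2 signal was 10.03, 9.92 and 9.84 in WT 1, 2 and 3 and 9.57, 9.68 and 11.01 in p80HT 1, 2 and 3. The mice p80HT 1 and 2 lay under every WT mouse, and p80HT 3 lay 1.08 above the WT mean. The log2 fold change was 0.16 (SE 0.37, 95% interval -0.70 to 1.02, limma adjusted p 0.971) with all arrays and -0.30 (SE 0.11, 95% interval -0.55 to -0.06, limma p 0.0195, adjusted p 0.149) without p80HT 3, and it did not pass in either. Its relative Marcks, another membrane-attached signal protein, rose, with signals of 10.22, 10.14 and 9.92 in WT and 10.93, 10.60 and 10.94 in p80HT (log2 fold change 0.73, SE 0.15, limma p 0.00197), and it rose without p80HT 3 too (0.67) but did not pass without WT 3 (0.64).

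**Figure D3:**
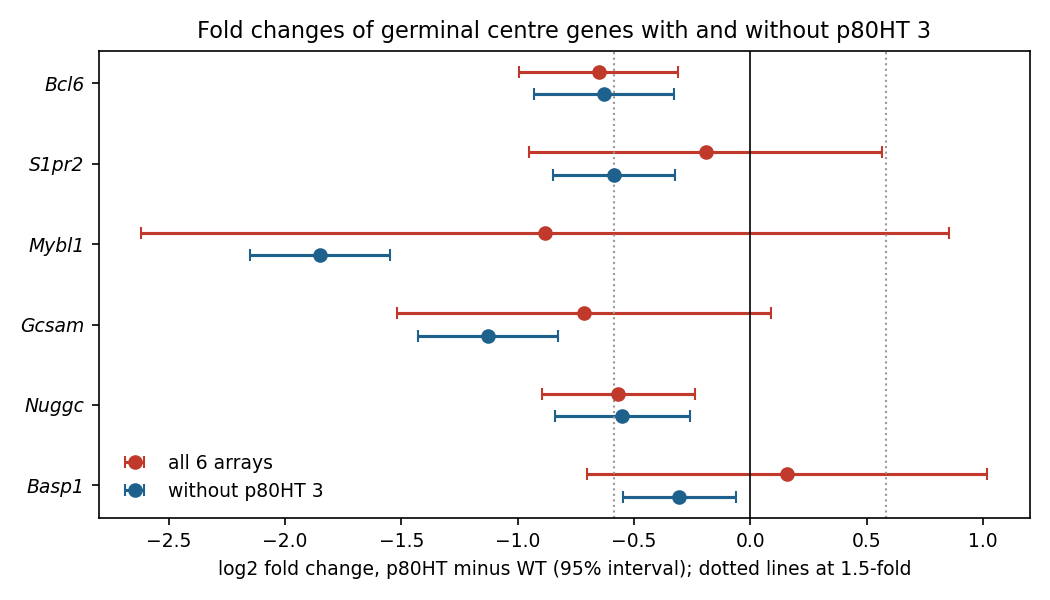
Log2 fold change, p80HT minus WT (horizontal axis), of the 6 measured genes with its 95% interval from limma, over all 6 arrays (red) and without p80HT 3 (blue), with dotted lines at 1.5-fold. Bcl6 and Nuggc hold the same place in both fits (-0.65 and -0.63, -0.57 and -0.55), and Mybl1, with the widest interval over all arrays, moves from -0.88 to -1.85.

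Over all arrays 1 of the 6 genes fell and 0 rose, while 0.968% of all genes fell and 1.22% rose. Without p80HT 3, 4 of the 6 fell (Bcl6, S1pr2, Mybl1 and Gcsam), against 1.45% of all genes, and 0 rose, against 2.01%. At an adjusted limma p under 0.05, 0 of the 6 were called over all arrays (2 had an unadjusted p under 0.05) and 5 without p80HT 3, in which 2.11% of all genes were called lower. Centring each array on its median turned the split of all genes past the threshold from 243 higher and 193 lower to 183 higher and 342 lower.

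The groups did not overlap for 2 of the 6 genes, Bcl6 and Nuggc, both lower in p80HT, and 11.9% of all genes had this pattern. The mice p80HT 1 and 2 lay under all WT mice for 6 of the 6 genes, which held for 20.5% of all genes. For 3 of the 6, S1pr2, Mybl1 and Basp1, p80HT 3 then lay above all WT mice, against 5.53% of all genes, and the same 3 had p80HT 3 as the highest of the 6 arrays, against 27.8%. The median log2 fold change of the 6 was -0.61 in both fits, beside -0.02 over all genes with 6 arrays and 0.04 without p80HT 3.

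On p80HT 3 the genes that were high with S1pr2, Mybl1 and Basp1 included those of dividing cells. The mean of 11 cell cycle genes was 10.30 on p80HT 3, against 8.88 to 9.02 in WT and 8.78 to 8.86 on p80HT 1 and 2, and p80HT 3 was the highest array for 10 of the 11, the exception being Cenpa. The mean of 3 follicular dendritic cell markers was 11.73 on p80HT 3, against 9.78 to 10.07 in WT and 9.46 to 9.47 on p80HT 1 and 2. Of these, Cxcl13, the chemokine that draws B cells into follicles, was at 13.90 on p80HT 3 and at most 8.50 elsewhere, and Mfge8 was at 12.15 against at most 8.74. The third marker, Cr2, which B cells also use, was lowest on p80HT 3, at 9.15 against 12.68 to 12.98 in WT, and it also fell without that array (-1.13). The mean of 6 markers of T follicular helper cells, which also use Bcl6, was 8.83 on p80HT 3. It was 7.49 to 7.69 in WT and 7.95 to 8.03 on p80HT 1 and 2. On p80HT 3, 4 of the 6 markers were at their highest and 2, Cxcr5 (9.84) and Cd40lg (6.06), at their lowest. Of the 6, Il21 and Cd40lg were near background on all 6 arrays. The part that these cells had in the signals of S1pr2, Mybl1 and Basp1 on p80HT 3 was not tested.

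**Figure D4:**
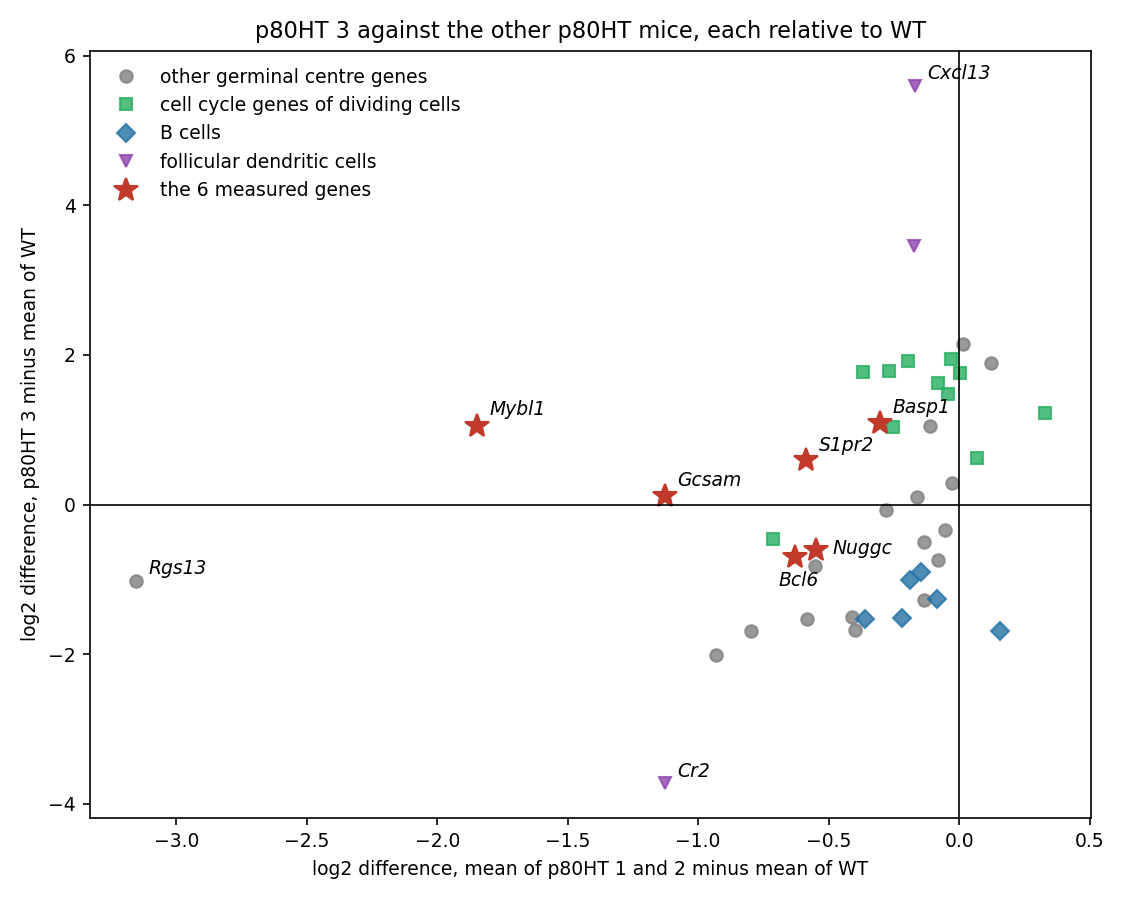
Log2 difference from the WT mean for p80HT 3 (vertical axis) against that for the mean of p80HT 1 and 2 (horizontal axis), 1 point per gene, with the 6 measured germinal centre genes as red stars. Bcl6 and Nuggc are under WT on both axes, whereas Mybl1 (1.05 on the vertical axis), Basp1 (1.08), S1pr2 (0.60) and Gcsam (0.11) are above WT on p80HT 3 alone, where most genes of dividing cells are also high and B cell markers are low.

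Among 17 other measured genes known in germinal centre B cells, 4 fell and 0 rose over all arrays, and 3 fell and 0 rose without p80HT 3. Of all genes 0.968% fell over all arrays and 1.45% without p80HT 3. Rgs13, a regulator that dampens chemokine receptor signals, was at 8.34, 8.86 and 8.45 in WT and 5.21, 5.59 and 7.53 in p80HT 1, 2 and 3 (log2 fold change -2.44, SE 0.56, limma p 0.00322, adjusted p 0.247). All p80HT mice lay under all WT mice, as for 11.9% of all genes. The mice p80HT 1 and 2 were near background, so that without p80HT 3 the difference was at least 2.19-fold. Neil1, a DNA glycosylase of base excision repair, fell by 1.09 and Cxcr4, the receptor that guides B cells to the dark zone of the germinal centre, by 1.29, and both also fell without p80HT 3, by 0.80 and 0.93. Klhl6, an adaptor of ubiquitin ligases in B cells, fell by 0.64 over all arrays and was at -0.55 without p80HT 3, which did not pass. The other 13 did not pass, and the median of the 17 was -0.30 over all arrays and -0.16 without p80HT 3. The call was lost without WT 2 for each of these 4 genes, without WT 1 for Rgs13, Neil1 and Cxcr4, without WT 3 for Neil1, Cxcr4 and Klhl6, and without p80HT 2 for Rgs13. It was also lost under ordinary analysis of variance for Rgs13, Neil1 and Cxcr4, and under quantile normalization for Neil1 and Klhl6.

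On p80HT 3, 10 of these 17 genes had their lowest signal of the 6 arrays, and the share of all genes with p80HT 3 lowest was not counted. Another 4 had their highest signal there, a share no greater than the 27.8% of all genes with p80HT 3 highest. The 4, named after their values were seen, were Fas, the death receptor that marks germinal centre B cells (9.99, against at most 8.35 elsewhere), Plxnb2 (11.11, against at most 9.06), Ezh2, a histone methyltransferase of dividing B cells (11.28, against at most 10.25), and Elk3 (10.50, against at most 10.37).

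Of 14 further transcription factors of the germinal centre reaction, 0 passed over all arrays, and Bach2, a repressor that works with Bcl6 and holds back plasma cell genes, fell without p80HT 3. Bach2 was at 11.56, 11.79 and 11.61 in WT and 10.84, 10.90 and 9.43 in p80HT 1, 2 and 3. All p80HT mice lay under all WT mice, as for 11.9% of all genes. The log2 fold change was -1.26 (limma p 0.0124, adjusted p 0.349) over all arrays and -0.78 (adjusted limma p 0.00423) without p80HT 3. Mef2c, the MEF2 factor of B cells and a relative of the unmeasured Mef2b, had a log2 fold change of -0.70 (limma p 0.0123), which did not pass, and -0.47 without p80HT 3. Of 9 measured members of the corepressor complexes that work with Bcl6, 0 passed in either fit. The smallest p among them belonged to Rcor1 (log2 fold change -0.24, limma p 0.0864) and Bcor (-0.22, limma p 0.134), which were at -0.18 and -0.23 without p80HT 3.

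Of 12 measured genes that Bcl6 is known to repress, 4 rose and 0 fell over all arrays, and 5 rose and 0 fell without p80HT 3. Of all genes 1.22% rose and 0.968% fell over all arrays, and 2.01% rose and 1.45% fell without p80HT 3. Several of the 12 are discussed by the study from these same samples, so the list is not independent evidence of its direction. Prdm1, which encodes Blimp-1 and directs plasma cell differentiation, was at 8.70, 8.72 and 8.62 in WT and 9.48, 9.21 and 9.75 in p80HT (log2 fold change 0.80, SE 0.16, limma p 0.00148, adjusted p 0.181, and 0.67 without p80HT 3). Cd80, a ligand for T cell co-stimulation, was at 8.79, 8.90 and 9.04 in WT and 10.79, 10.55 and 10.80 in p80HT (1.81, SE 0.14, adjusted limma p 0.0173, and 1.76 without p80HT 3). For both genes every p80HT mouse was above every WT mouse, and the share of all genes with this pattern was not counted.

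The D-type cyclin gene Ccnd2 (1.37, 1.10 without p80HT 3) and the adhesion receptor Cd44 (0.70, 0.63 without p80HT 3) also rose. Id2, an inhibitor of helix-loop-helix factors, rose without p80HT 3 (0.62) and did not pass over all arrays (1.12, limma p 0.0324). For Ccnd2, Cd44 and Id2 too, every p80HT mouse was above every WT mouse, a pattern whose share of all genes was not counted. The other 7 of the 12 did not pass in either fit. Of these, Cd69 (-1.22), Gpr183 (-1.03) and S1pr1 (-0.58) went the other way, with every p80HT mouse under every WT mouse. That lower pattern held for 11.9% of all genes. The median of the 12 was 0.08 over all arrays and 0.11 without p80HT 3. Prdm1 is also used by plasma cells, and it is 1 of the 6 markers listed for them. The mean of the 6 was 10.13 to 10.37 in WT, 10.12 to 10.49 on p80HT 1 and 2 and 10.33 on p80HT 3. On p80HT 3, Sdc1 (9.29), Xbp1 (11.91) and Prdm1 (9.75) were at their highest, while Irf4 (10.34) was at its lowest. Cd44 and Id2 are also used by T cells, whose markers Cd3e and Cd3g rose in p80HT (1.74 and 2.03). Both calls were lost without WT 1 (1.64 and 1.96) and under ordinary analysis of variance. The call of Cd3g was also lost without WT 2 (2.12) and without WT 3 (2.03). Without p80HT 3, 4 of the 6 T cell markers rose, Cd3e (1.28), Cd3d (0.62), Cd3g (1.41) and Cd8a (0.62), as did Icos (0.89), 1 of the 6 T follicular helper markers, and Adgre1 (0.92), 1 of the 6 macrophage markers. Adgre1 also rose over all arrays (0.72), a call lost on leaving out any 1 of the other 5 arrays (0.57 to 0.75). That call was also lost under median centring, quantile normalization and ordinary analysis of variance. Markers of other cells were thus also higher in the fit from which p80HT 3 was left out, and the part of these cells in the 5 rises, and in the falls of Bcl6, S1pr2, Mybl1 and Gcsam, was not tested.

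Of 10 genes that position B cells in the follicle together with S1pr2, 2 fell and 0 rose in both fits. Of all genes 0.968% fell over all arrays and 1.45% without p80HT 3. The 2 were Cxcr4 and Cnr2, a cannabinoid receptor of B cells. Cnr2 was at 9.72, 10.12 and 10.39 in WT and 9.01, 9.18 and 7.87 in p80HT (log2 fold change -1.39, limma p 0.00578, adjusted p 0.287). Without p80HT 3 Cnr2 fell by 0.98. Its call was lost without WT 2 (-1.37), without WT 3 (-1.23), under quantile normalization (-1.32) and under ordinary analysis of variance. Gna13 and Arhgef1, through which S1pr2 signals, had log2 fold changes of -0.15 and -0.52 over all arrays and -0.05 and -0.35 without p80HT 3, and did not pass. Among 13 paralogues of the germinal centre genes, Marcks alone passed. The S1pr2 relatives S1pr1, S1pr3, S1pr4 and S1pr5 had log2 fold changes of -0.58, -0.05, -0.45 and -0.13 over all arrays and -0.08, 0.06, -0.33 and 0.07 without p80HT 3, and did not pass.

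Of the 11 cell cycle genes 1 passed, Cenpa, a centromeric histone variant, which was lower in p80HT (-0.63 over all arrays and -0.71 without p80HT 3). Cenpa did not pass without WT 3 (-0.60), without p80HT 2 (-0.56) or under quantile normalization (-0.55). The median of the 11 was 0.46 with p80HT 3 and -0.08 without it.

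The profile most like that of Bcl6 over the 6 arrays, by the root mean square difference of log2 values centred on each gene's own mean, was that of Bcl2l11 (0.0456), which encodes the pro-apoptotic protein Bim. Bcl2l11 was at 10.51, 10.66 and 10.75 in WT 1, 2 and 3 and at 10.25, 9.89 and 10.04 in p80HT 1, 2 and 3. Like Bcl6, it was lowest in p80HT 2 and highest in WT 3, and at 1.49-fold it did not pass. Gpbp1 (0.0636) and the kinase gene Prkd3 (0.0644) followed, and both fell, by 0.69 and 0.69. Bcl2l11, Gpbp1 and Prkd3 were chosen for their likeness to Bcl6, so the shared pattern and direction are not a separate result. Among the measured germinal centre genes the nearest to Bcl6 was Nuggc, at rank 1086 (0.227), and the farthest Mybl1, at rank 19506, with Nuggc near background on 4 of the 6 arrays. Over the 5 arrays without p80HT 3, Bcl2l11 was again the nearest (0.0388), followed by Alpk2 (0.0496) and Zc3h12a (0.0551), the latter the gene of an RNase that restrains immune activation. In that set the nearest of the measured germinal centre genes was S1pr2, at rank 1522 (0.203), and Nuggc was at rank 3071 (0.247).

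For the 3 genes that passed only without p80HT 3, likeness was read over the other 5 arrays. Mybl1 and Gcsam were near background on p80HT 1 and 2, so their differences from WT are bounds and the likeness describes measured signals only. Mybl1 was most like Plk2 (0.157), a kinase gene, Hes1 (0.157), a repressor downstream of Notch, and Vpreb3 (0.179), a gene of the B cell lineage, with Gcsam at rank 15 (0.367). On the array left out, Plk2 (7.05), Hes1 (8.21) and Vpreb3 (8.16) had their lowest signals of the 6 arrays, whereas Mybl1 had its highest. Gcsam was most like Satb1 (0.0494), a chromatin organiser of lymphocytes, Adamts6 (0.0869) and Nlrc3 (0.0997), and on p80HT 3 Satb1 (10.20) and Adamts6 (7.60) were at their lowest while Nlrc3 (8.93), like Gcsam, lay above p80HT 1 and 2. S1pr2 was most like Coq8a (0.0281), Emid1 (0.0321) and Dhdh (0.0727), and Coq8a (8.95) and Emid1 (7.87) were at their lowest on p80HT 3, where S1pr2 was at its highest and Dhdh (8.99) lay above p80HT 1 and 2.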

How the data were processed

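Splenic B cells of 3 p80HT and 3 WT mice were measured on Affymetrix Mouse Gene 1.0 ST arrays, 1 per mouse. The deposited values are log2 probeset signals that the authors made with RMA in Partek, and versions and settings are not given in the sources used here. RMA in its standard form quantile-normalizes probes, so a shift shared by most genes is not visible in these values. Of 28853 probesets, 21789 carry 1 gene symbol, 1621 several and 5443 none. Each of 19938 genes was read at its single-symbol probeset of highest mean (999 genes had more than 1). Arrays have no depth of sequencing, and precision rests on the number of mice and on signal above background.

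The comparison of p80HT with WT used lmFit and eBayes of limma 3.58.1 under R 4.3.3, 2-sided and without a block, with Benjamini-Hochberg adjustment over all genes. The same fit was also tried on simulated data with independent noise at the WT variance. That trial held no array that stood apart as p80HT 3 does, so it does not cover this feature of the data. P-values set the difference between the groups against the spread between mice within them, which limma moderates with the spread of all genes. The 7 genes, the other lists and the tests were chosen with earlier results of these data known. Named were the 7 genes, the members of each list past the threshold with or without p80HT 3 (where 0 passed, up to 2 with the smallest p), and the 3 genes nearest in profile to each measured gene that passed. Values of relatives and signalling partners that did not pass were chosen after they were seen. Where all p80HT arrays of a fit lay near background for a measured germinal centre gene or Rgs13, the difference was taken against the background mark as "at least". Differences of other genes, among them Cd3d, are of measured signals. Promoter windows are from RefSeq (GRCm38.p6). The alternatives were leaving out each array, the replicate number as a block, ordinary analysis of variance, an intensity trend, quantile normalization, median centring, leaving out genes under the 25th percentile of signal, averaging a gene's probesets, and an adjusted p under 0.05. Some listed genes are not reported here.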

Additional observations from a re-analysis of the deposited data

How the results depend on the processing

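Of the 6 measured germinal centre genes, 1 passed the threshold over all arrays, 2 under median centring, 0 at an adjusted limma p under 0.05, and 0 to 4 when 1 array at a time was left out, the 4 without p80HT 3 and the 0 without WT 2 or WT 3. The 1 gene was Nuggc in place of Bcl6 under quantile normalization and without p80HT 2. The log2 fold change of Bcl6 ran from -0.76 to -0.56 over the alternatives, and that of S1pr2 from -0.59 (without p80HT 3) to 0.0161 (without p80HT 1). For Basp1 it ran from -0.30 (without p80HT 3) to 0.42 (without p80HT 1). For Mybl1 it ran from -1.85 (without p80HT 3) to -0.36 (without p80HT 1), and for Gcsam from -1.13 (without p80HT 3) to -0.46 (without p80HT 2). Adjusted p-values ran from 0.0295 to 0.991 for Bcl6, from 0.0426 to 0.997 for Nuggc and from 0.000121 to 1.00 for Mybl1.

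Of the 17 other germinal centre genes, 4 passed, with 1 under ordinary analysis of variance, 2 under quantile normalization, 0 at an adjusted p under 0.05 and 0 to 4 with 1 array left out. Of all genes 436 passed, with 196 under ordinary analysis of variance, 11 at an adjusted p under 0.05 and 206 (without WT 2) to 691 (without p80HT 3) with 1 array left out. With the replicate block 1 of the 6 genes, 5 of the 17 and 567 of all genes passed. The deviations of same-numbered mice from their group means correlated at 0.07, -0.24 and 0.07, and 2 of 6 arrays correlated best with their own number. The p80HT mean includes p80HT 3, which stood apart, so this check cannot decide whether the numbers pair the mice. The cause of these shifts was not tested. Signals near background limit the folds of Mybl1, Gcsam, Nuggc and Rgs13 on p80HT 1 and 2, and that of Cd3d in WT.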
